A study of Mus musculus with 24 samples.

Results

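Glycolysis splits glucose into pyruvate in the cytosol and yields ATP without oxygen. It starts with hexokinase, has its main control point at phosphofructokinase, and runs through aldolase, glyceraldehyde-3-phosphate dehydrogenase, phosphoglycerate kinase, enolase and pyruvate kinase. Lactate dehydrogenase then turns pyruvate into lactate, or lactate back into pyruvate. Most steps have several isozymes that neurons, glia and other cells use to different degrees. Neurons are known for Eno2, and astrocytes for Aldoc. Several genes of the pathway, among them Hk2, Ldha and Pgk1, are known targets of the hypoxia-inducible factor HIF-1, which binds DNA with the core sequence ACGTG or GCGTG.

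The 10 core glycolytic enzymes described here are Hk1, Hk2, Pfkm, Pfkp, Aldoa, Gapdh, Pgk1, Eno2, Pkm and Ldha, taken by symbol from 14769 genes in the deposited tables. All 10 of 10 were measured in each of the 4 tables. Aldoa is listed there by its Ensembl identifier (ENSMUSG00000030695). The samples were cortex of male mice aged 3 to 4 months. The middle cerebral artery had been closed with a filament for 1 h and blood flow restored for 1 day, a model of ischemic stroke called tMCAo. Animals were wild type (WT) or lacked the circular RNA ciRS-7 (ciRS-7 KO, here KO), and the labels give the strain C57BL/6N-Cdr1asem1Nikr to all of them, WT included. Each animal gave a CL and a PI sample, marks that the labels do not spell out. With 2 genotypes and 2 sides this makes 4 groups of 6 libraries. Animals that had no surgery are not among the groups, so each CL sample is also cortex of an operated mouse. The question put to these data was how the enzymes differ between PI and CL within a genotype, and between KO and WT within a side.

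The host gene of ciRS-7, Cdr1as, was at 3434 to 3801 CPM in CL WT and 2610 to 2931 CPM in PI WT as deposited. Its deposited values in the KO groups ran up to 0.166 CPM. Deposited values are drawn in, as described next, so this check does not reach the 2 outermost libraries of a group. CPM are the reads of a gene scaled to a common library size within a table. Each table was scaled separately, so the values of a library differ slightly between tables. Effective library depth, read from the spacing of low values in each table, ran from about 3764000 to 10512000 reads, with a median of 6917500. The shallowest library was CL KO replicate 6. In each gene and group the deposited values had the 2 lowest and the 2 highest libraries drawn in to the group's quartiles. The second lowest to second highest values can be solved exactly, and the outermost 2 cannot. Levels are therefore given as the second lowest, the median and the second highest of 6 libraries. Changes are log2 differences of trimmed means over 6 libraries a group, with ± the standard error (SE), tested by the moderated trimmed-mean test in limma. A gene is called changed at an adjusted p under 0.05. Since CL and PI libraries with the same number come from the same mouse, limma was also run with the animal as a block, which needs the deposited values and so a spread that the drawing in makes too small.

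Markers of brain cell types were present, though none of those named here marks the cortex itself. The neuronal markers Rbfox3 and Slc17a7, the astrocyte markers Aqp4 and Gja1, and the myelin gene Mbp were measured in all 4 tables. In bulk cortex, fewer cells of a type and less RNA per cell cannot be told apart.

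Levels were compared between genes after division by exonic length. In CL WT, aldolase A (Aldoa), which splits fructose-1,6-bisphosphate, stood highest with 227 CPM per kb of exon (second lowest to second highest library 218 to 236). Pgk1 at 117 and Gapdh at 116 CPM per kb followed, and their ranges overlapped (112 to 127 and 111 to 121). Below them came Pkm at 84.0, Eno2 at 74.1, Pfkm at 52.8, Ldha at 32.1, Hk1 at 21.4 and Pfkp at 15.97 CPM per kb, with no overlap between neighbours in this order. Hk2 was far below the rest at 0.499 CPM per kb (0.419 to 0.574). The length is that of all annotated exons together, which lowers genes with long alternative exons such as Pfkp, at 13.4 kb. In PI WT the order was the same, and Gapdh, at 101 CPM per kb (95.1 to 112), overlapped with Pgk1 at 118 (109.9 to 129) only at the edge of its range. The 10 enzymes together took 2777 to 2946 CPM in the CL libraries of WT animals and 2796 to 3037 CPM in their PI libraries. KO animals had 2736 to 2877 CPM (CL) and 2789 to 3229 CPM (PI). The ranges of the sum overlapped between all 4 groups. These sums run from the lowest to the highest library and add deposited, drawn-in values, so their ranges may be too narrow.

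**Figure D1:**
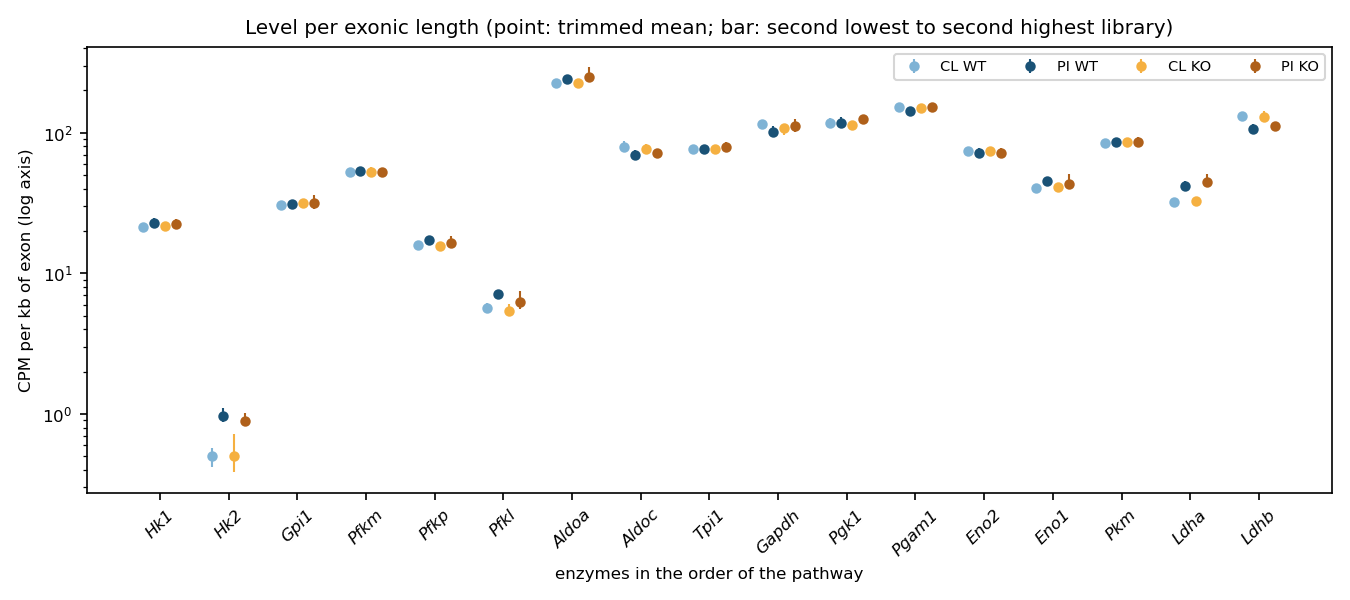
Level of each glycolytic enzyme in CPM per kb of exon on a log axis, in the order of the pathway, for the 4 groups of 6 libraries. Points are trimmed means and bars run from the second lowest to the second highest library; Hk2 lies lowest, near 0.499 in CL WT, and Aldoa highest, near 227.

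Of the 10 enzymes, Ldha and Hk2 were higher in PI than in CL of WT animals, by 1.30-fold and 1.94-fold. In KO animals Ldha was again called, at 1.38-fold, while Hk2, at 1.77-fold, did not pass the test. The other 8 enzymes were not called in either genotype, and their changes lay between -0.19 and 0.15 on the log2 scale. Between genotypes none of the 10 was called on either side.

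In WT animals 2 of 10 enzymes were called in PI against CL, both higher. Of all 14489 genes tested there, 10.6% were called, 5.2% higher and 5.4% lower. At an unadjusted p under 0.05 there were 3 of the 10 (Gapdh added, lower), beside 23.9% of all genes. In KO animals 1 of 10 was called, higher, where 10% of 14338 genes were called, 5.11% higher and 4.94% lower. There 3 of the 10 had an unadjusted p under 0.05 (Hk2 and Pgk1 added, higher), beside 24.9% of all genes. Recoverable PI values lay above all CL values for 3 enzymes in WT (Hk2, Pfkp and Ldha) and 4 in KO (those and Pgk1), and below for none. Over all genes the shares without overlap were 13.2% higher and 13.1% lower in WT, and 13.4% higher and 13.4% lower in KO. The median change of the 10 enzymes was 0.06 in WT and 0.07 in KO, beside 0.01 and -0.00068 for all genes. With each group centred on its median gene, the share of calls that were higher fell from 49.1% to 37.7% in WT and from 50.8% to 36.7% in KO, while all log2 changes moved down by 0.03 and 0.04.

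**Figure D2:**
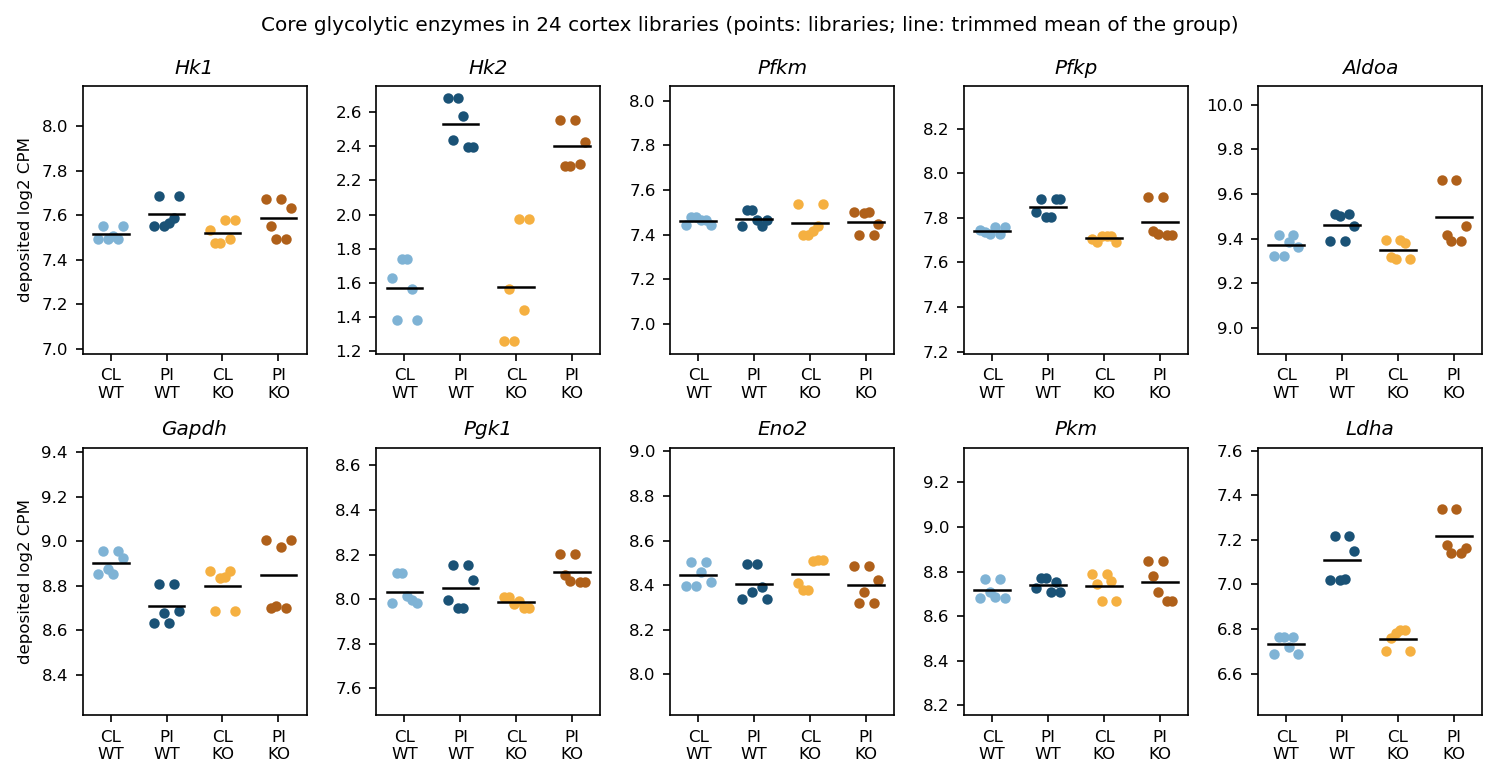
Deposited log2 CPM of the 10 enzymes in each of 24 libraries, 6 a group, with a line at each group's trimmed mean; the 2 lowest and 2 highest points of a group are tied because the deposited values were drawn in. Every Ldha and Hk2 point of PI lies above every point of CL of the same genotype, and the 2 genotypes were scaled in separate tables.

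Ldha encodes the lactate dehydrogenase subunit A, which favours the making of lactate (chr7:46841475-46855627, plus strand, mm10). Its level was 102, 107 and 109 CPM in CL WT and 130, 136 and 151 CPM in PI WT, for the second lowest, median and second highest library. The same values were 103, 109 and 111 CPM in CL KO and 140, 144 and 168 CPM in PI KO. In both genotypes all recoverable PI values were above all recoverable CL values. The change was 0.38 ± 0.07 in WT (adjusted p = 0.00419) and 0.46 ± 0.08 in KO (adjusted p = 0.00314). It stayed called in all 18 leave-outs of a genotype (each of 12 libraries, and both libraries of each of 6 animals), with adjusted p from 0.00494 to 0.0465 in WT and from 0.00195 to 0.0297 in KO.

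Ldhb encodes the subunit B, which favours the turning of lactate into pyruvate (chr6:142490249-142507957, minus strand). It moved the other way in WT, from 196, 206 and 221 CPM in CL to 155, 167 and 181 CPM in PI, with no overlap. That is a change of -0.31 ± 0.07 (adjusted p = 0.0165). The call was lost without animal 1, 3 or 6 (adjusted p = 0.0822, 0.0659 and 0.053), with changes of -0.30, -0.33 and -0.30. In KO the values were 189, 203 and 223 CPM in CL and 167, 176 and 179 CPM in PI, a change of -0.23 ± 0.07 that was not called (adjusted p = 0.0626). Without CL KO replicate 3 or 6 the KO change was -0.26 and was called (adjusted p = 0.0468 and 0.0341). It was also called without both libraries of animal 6 (adjusted p = 0.0487). Limma with the animal as a block called it too (adjusted p = 0.000539), but that fit called 47.1% of all genes in KO. Only 3 of 18 leave-outs gained the KO call. Over all 18 the KO change ran from -0.28 to -0.18, with adjusted p from 0.0341 to 0.269.

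The change of Ldha exceeded that of Ldhb by 0.69 in WT (95% interval 0.38 to 1.00) and by 0.69 in KO (0.36 to 1.01). These intervals use the sum of both standard errors, the widest value that any correlation between the 2 genes allows, and carry no p. From the group levels per kb, Ldha made up 19.5% of the 2 subunits in CL WT and 28.2% in PI WT. In KO it made up 20.0% in CL and 28.8% in PI. Ldhb thus remained the more abundant transcript per kb in all 4 groups. These shares depend on the exonic lengths, 3.31 kb (Ldha) and 1.57 kb (Ldhb). In CPM Ldhb also had the higher median in all 4 groups, but its range overlapped with that of Ldha in PI KO.

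The bases just upstream of the RefSeq starts are shown for Ldha and Hk2, the 2 called enzymes, with Ldhb and Eno2 for comparison, chosen because these windows hold different numbers of the HIF-1 core, so they are examples and no sample of the 10. For Ldha the window of the first of its 2 RefSeq starts is printed. Each run is the 250 bases before the start, read 5′ to 3′ on the gene's strand from RefSeq on GRCm38.p6. Capitals mark ACGTG or GCGTG on either strand (CACGT or CACGC as printed), and matches that share bases are merged. The windows are chr7:46845554-46845803 (plus strand) for Ldha, chr6:142507958-142508207 (minus) for Ldhb, chr6:82774455-82774704 (minus) for Hk2 and chr6:124769674-124769923 (minus) for Eno2.
Ldha: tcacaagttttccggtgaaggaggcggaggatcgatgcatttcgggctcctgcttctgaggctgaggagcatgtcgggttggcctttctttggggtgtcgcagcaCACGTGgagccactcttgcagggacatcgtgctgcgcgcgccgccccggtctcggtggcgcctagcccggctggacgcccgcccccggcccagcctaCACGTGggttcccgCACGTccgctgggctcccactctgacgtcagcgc
Ldhb: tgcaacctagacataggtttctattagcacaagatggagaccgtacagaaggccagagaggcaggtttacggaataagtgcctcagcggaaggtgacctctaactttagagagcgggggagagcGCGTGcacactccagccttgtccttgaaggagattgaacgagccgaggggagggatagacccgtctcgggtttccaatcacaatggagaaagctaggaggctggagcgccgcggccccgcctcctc
Hk2: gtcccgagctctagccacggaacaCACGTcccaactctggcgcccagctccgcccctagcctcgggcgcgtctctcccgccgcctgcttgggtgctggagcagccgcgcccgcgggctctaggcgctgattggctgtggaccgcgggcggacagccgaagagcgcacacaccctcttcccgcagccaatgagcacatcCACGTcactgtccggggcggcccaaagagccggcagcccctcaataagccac
Eno2: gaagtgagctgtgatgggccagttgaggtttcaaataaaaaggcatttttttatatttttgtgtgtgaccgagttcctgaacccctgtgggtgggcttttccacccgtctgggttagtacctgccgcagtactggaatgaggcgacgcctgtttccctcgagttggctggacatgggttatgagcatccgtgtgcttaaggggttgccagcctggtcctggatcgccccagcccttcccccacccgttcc
The Ldha window held 3 such stretches, beginning 145, 48 and 34 bases before the start, of which 2 read CACGTG. The window of the second Ldha start (chr7:46846832-46847081) held 1, at 59 bases, which reads CACGC. Hk2 held 2, at 226 and 52 bases, Ldhb held 1 at 126 bases, and Eno2 held 0. All 10 enzymes matched the promoter table, with 18 windows, and 13 of those windows held the core. The core was in at least 1 window of 9 of the 10 enzymes, all but Eno2, and 7 of the 10 had a window with 2 or more stretches. Of the enzymes that were not called, Pfkp had a window with 3 stretches, and Gapdh, Pgk1, Hk1 and Pfkm had 1 with 2. Of all 32851 promoter windows 38.6% held the core. Among the 13534 windows of genes measured in WT the share was 54.9%, and 23.0% had 2 or more stretches. These shares are per window, as is 13 of 18, while 9 and 7 of 10 count enzymes over all their windows. The per-enzyme counts are thus not comparable with the shares. Some windows of Aldoa and of Pfkm overlap and count the same stretch again. A match is a run of letters and was not tested as a binding site here.

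Hk2 encodes hexokinase 2, an inducible enzyme of the first step that binds to mitochondria (chr6:82725025-82774454, minus strand). In WT it rose from 2.50, 3.03 and 3.42 CPM in CL to 5.22, 5.68 and 6.57 CPM in PI. These levels correspond to about 21.0 and 40.3 reads a library. The groups did not overlap, and the change was 0.95 ± 0.18 (adjusted p = 0.00543). It stayed called in every leave-out of a library or animal, with adjusted p from 0.00794 to 0.0314. In KO the values were 2.29, 2.83 and 4.32 CPM in CL and 4.87, 5.14 and 6.06 CPM in PI, again with no overlap of the recoverable values. The KO change of 0.82 ± 0.25 was not called (adjusted p = 0.0584). The spread lay in CL KO, where replicates 4 and 6 were the highest pair. Without replicate 4 or without replicate 6 of CL KO the change was 1.00 and was called (adjusted p = 0.0183 and 0.0121), and without both libraries of animal 4 or 6 it was 0.93 and 0.99 (adjusted p = 0.0315 and 0.0188). As the 2 replicates form the highest pair, leaving out either must give the same, larger change. Only these 4 of 18 leave-outs gained the call. Over all 18 the KO change ran from 0.63 to 1.00, with adjusted p from 0.0121 to 0.193. With the animal as a block limma gave an adjusted p of 0.000365, in a fit with understated spread that called 47.1% of all genes in KO. Replicate 6 of CL KO is the shallowest library. The difference between the 2 genotypes' changes was -0.13 ± 0.32 (95% interval -0.80 to 0.54, adjusted p = 0.994), so at this depth the KO response of Hk2 was not told apart from that of WT.

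Hk1, the constitutive hexokinase of brain (chr10:62268855-62379908, minus strand), supplied 97.7% of the 2 hexokinases per kb in CL WT and 95.9% in PI WT. Its levels were 180, 181 and 189 CPM in CL WT and 187, 191 and 211 CPM in PI WT, and the groups overlapped. The change of Hk1 was 0.09 ± 0.06 in WT (adjusted p = 0.403) and 0.06 ± 0.07 in KO (adjusted p = 0.624). The change of Hk2 exceeded that of Hk1 by 0.86 in WT (widest 95% interval 0.34 to 1.39) and 0.76 in KO (0.06 to 1.46).

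Phosphofructokinase is a tetramer of muscle (Pfkm), platelet (Pfkp) and liver (Pfkl) subunits. Pfkm, the most abundant per kb at 70.9% of the 3 in CL WT (chr15:98092589-98132451, plus strand), was level in the data. It stood at 173, 177 and 179 CPM in CL WT and 172, 177 and 184 CPM in PI WT, a change of 0.01 ± 0.05 (adjusted p = 0.94). Pfkp (chr13:6579768-6648777, minus strand) went from 212, 214 and 217 CPM in CL WT to 222, 232 and 236 CPM in PI WT. In CPM Pfkp thus stood above Pfkm in WT, and the order per kb depends on the exonic lengths, 13.4 kb (Pfkp) and 3.34 kb (Pfkm). The recoverable values of Pfkp did not overlap, but its change of 0.10 ± 0.05 was not called (adjusted p = 0.212). Limma with the animal as a block gave an adjusted p of 0.00421, in a fit that called 45.6% of all genes in WT. In KO, Pfkp was at 206, 210 and 211 CPM in CL and 211, 213 and 246 CPM in PI, a change of 0.08 ± 0.07 (adjusted p = 0.546).

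Pfkl, the liver-type subunit found in many cell types and a partner outside the 10, was the only phosphofructokinase called in WT by the trimmed-mean test. It went from 35.4, 38.2 and 40.9 CPM to 45.7, 47.98 and 49.2 CPM, a change of 0.32 ± 0.08 (adjusted p = 0.0153) with no overlap. Without animal 1, 3 or 6 the change was 0.33, 0.33 and 0.29 and was not called (adjusted p = 0.0526, 0.0629 and 0.082). In KO its change was 0.19 ± 0.12 (adjusted p = 0.357). Limma with the block gave an adjusted p of 0.0188 there, in a fit that called 47.1% of all genes. The change of Pfkl exceeded that of Pfkm by 0.31 in WT (widest 95% interval 0.04 to 0.58), while the interval in KO ran from -0.22 to 0.59. Against Pfkp the difference was 0.22 in WT (-0.05 to 0.49) and 0.12 in KO (-0.29 to 0.53), and both intervals included 0. Even so, Pfkl made up 7.67% of the 3 subunits per kb in CL WT and 9.23% in PI WT.

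Aldoa (chr7:126795234-126800751, minus strand) stood at 633, 663 and 688 CPM in CL WT and 661, 714 and 730 CPM in PI WT, with overlap. In KO it stood at 631, 652 and 674 CPM in CL and 667, 693 and 850 CPM in PI. Its changes of 0.09 ± 0.06 in WT and 0.15 ± 0.09 in KO were not called (adjusted p = 0.382 and 0.338). Aldoc, the aldolase of astrocytes, had changes of -0.18 ± 0.08 and -0.11 ± 0.06, also not called (adjusted p = 0.189 and 0.277). The change of Aldoa minus that of Aldoc was 0.27 in WT and 0.25 in KO, and both widest intervals included 0 (-0.03 to 0.57 and -0.06 to 0.57).

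Gapdh, the enzyme that reduces NAD and is often used as a reference transcript (chr6:125161715-125166467, minus strand), had a change below 0 in WT and above 0 in KO. In WT it stood at 459, 478 and 499 CPM in CL and 393, 410 and 461 CPM in PI, so the groups touched at their edges. The change was -0.19 ± 0.07 and was not called (unadjusted p = 0.0138, adjusted p = 0.0931). Without PI WT replicate 2 or 5 it was -0.24 and was called (adjusted p = 0.0169 and 0.0189), and without both libraries of animal 2 or 5 it was -0.22 (adjusted p = 0.0364 and 0.0421). PI WT replicates 2 and 5 form the highest pair, so leaving out either must give the same, lower change. Only these 4 of 18 leave-outs gained the call, and adjusted p over all 18 ran from 0.0169 to 0.301. With groups centred on the median gene it was -0.23 and was called (adjusted p = 0.0479). Limma with the animal as a block also called it (adjusted p = 6.6e-05), but that fit called 45.6% of all genes in WT. In KO, Gapdh stood at 398, 457 and 470 CPM in CL and 415, 459 and 518 CPM in PI, a change of 0.05 ± 0.10 (adjusted p = 0.797). Across the leave-outs the KO change ran from -0.06 to 0.13. The difference between the genotypes' changes was 0.25 ± 0.13 (95% interval -0.02 to 0.52, unadjusted p = 0.0714, adjusted p = 0.992). Near-identical pseudogenes of Gapdh exist, and how the authors' counting treated reads shared with them is not given in the sources used here.

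Pgk1, which makes the first ATP of the pathway (chrX:106187100-106203699, plus strand), stood at 252, 257 and 284 CPM in CL WT and 247, 263 and 289 CPM in PI WT, with overlap. Its WT change was 0.02 ± 0.07 (adjusted p = 0.923). In KO it stood at 248, 253 and 259 CPM in CL and 269, 273 and 301 CPM in PI, with no overlap. The KO change of 0.14 ± 0.06 was not called (unadjusted p = 0.0341, adjusted p = 0.16). Limma with the block gave an adjusted p of 0.00123, in a fit that called 47.1% of all genes in KO. The genotypes' changes differed by 0.12 ± 0.10 (adjusted p = 0.992). The near-copy Pgk1-rs7 was listed at 9.41 CPM in CL WT and 10.6 CPM in PI WT, and at 9.003 and 12.1 CPM in KO. A small part of the Pgk1 reads could thus belong to Pgk1-rs7, and any part of the Pgk1-rs7 reads to Pgk1.

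Eno2, the neuronal enolase (chr6:124760053-124769673, minus strand), stood at 336, 346 and 367 CPM in CL WT and 322, 333 and 369 CPM in PI WT. In KO it stood at 331, 352 and 367 CPM in CL and 316, 337 and 364 CPM in PI. The groups overlapped in both genotypes, and the changes were -0.04 ± 0.06 (adjusted p = 0.763) and -0.05 ± 0.07 (adjusted p = 0.71). Eno1, the enolase of glia and most other cells, had a change of 0.17 ± 0.06 in WT that was not called (adjusted p = 0.0788), and 0.08 ± 0.09 in KO (adjusted p = 0.652). The change of Eno1 minus that of Eno2 was 0.22 in WT (widest 95% interval -0.05 to 0.48) and 0.13 in KO (-0.22 to 0.48). Eno2 made up 64.9% of the 2 enolases per kb in CL WT and 61.4% in PI WT. Reads of Eno1 and its near-copy Eno1b may be split between them, and Eno1b was listed at the table's lowest value in part of the CL WT libraries.

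Pkm, pyruvate kinase, makes pyruvate and the second ATP of the pathway (chr9:59656368-59679375, plus strand). It stood at 410, 415 and 442 CPM in CL WT and 416, 428 and 438 CPM in PI WT. In KO it stood at 399, 431 and 446 CPM in CL and 404, 429 and 467 CPM in PI. Its changes were 0.02 ± 0.05 (adjusted p = 0.83) and 0.02 ± 0.07 (adjusted p = 0.915), with overlap in both. The spliced forms M1 and M2, which neurons and other cells use to different degrees, share the gene row and cannot be told apart in it. After centring on the median gene the small changes of Pfkm and Pkm turned negative in both genotypes (-0.02 and -0.01 in WT, -0.03 and -0.02 in KO), as did that of Pgk1 in WT (-0.02).

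**Figure D3:**
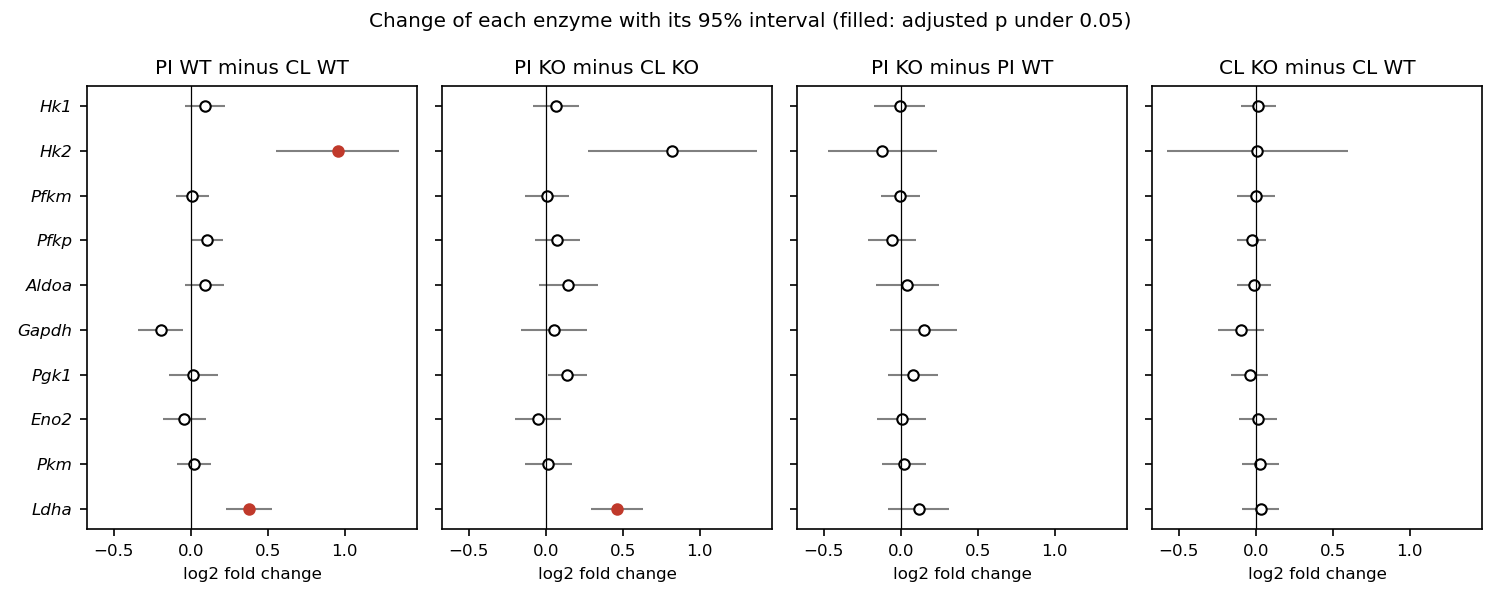
Log2 fold change of each enzyme with its 95% interval in the 4 comparisons; filled points were called at an adjusted p under 0.05. Only Ldha in both genotypes and Hk2 in WT are filled, and all intervals of KO against WT include 0.

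Some further steps have a single main gene in brain and are not among the 10. Gpi1, Tpi1 and Pgam1 had WT changes of 0.03 ± 0.05, 0.01 ± 0.05 and -0.08 ± 0.06 (adjusted p = 0.836, 0.919 and 0.413). In KO they were 0.00296 ± 0.09, 0.06 ± 0.08 and 0.02 ± 0.06, with no call. Of 12 other isozymes and steps measured in WT, Pfkl was called higher and Ldhb lower, beside 10.6% of all genes (10% in KO). Of 11 measured in KO none was called by the trimmed-mean test in limma, with 1 at an unadjusted p under 0.05, Ldhb.

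Beyond the enzymes, the genes that carry lactate and steer pyruvate were examined in a fixed list. Slc16a1 encodes the monocarboxylate transporter MCT1 of glia and endothelium. It rose from 33.6, 36.2 and 37.3 CPM to 52.0, 55.1 and 56.3 CPM in WT, with no overlap. That was a change of 0.61 ± 0.07 (1.53-fold, adjusted p = 0.000202). In KO it went from 33.2, 37.2 and 39.9 CPM to 49.1, 54.8 and 61.6 CPM, a change of 0.58 ± 0.11 (1.49-fold, adjusted p = 0.00523). The KO call was lost without animal 2 (0.53, adjusted p = 0.0585).

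Slc16a7 encodes MCT2, the high-affinity transporter of neurons. It fell in WT from 47.0, 49.0 and 51.5 CPM to 38.4, 39.4 and 40.5 CPM, with a log2 change of -0.32 ± 0.07 (adjusted p = 0.00802), a call lost without animal 3 (-0.29, adjusted p = 0.0517). In KO its change was -0.25 ± 0.10 (adjusted p = 0.136). Limma with the block gave an adjusted p of 0.000119 there, in a fit that called 47.1% of all genes. The change of Slc16a1 exceeded that of Slc16a7 by 0.93 in WT (widest 95% interval 0.63 to 1.22) and by 0.82 in KO (0.38 to 1.27). The glucose transporters Slc2a1 and Slc2a3 had changes of 0.12 ± 0.19 and 0.16 ± 0.09 in WT (adjusted p = 0.772 and 0.291), and of -0.04 ± 0.11 and 0.00749 ± 0.07 in KO (adjusted p = 0.867 and 0.965). Of 7 transport genes measured, 1 was called higher and 1 lower in WT, and 1 higher in KO. Over all genes 10.6% (WT) and 10% (KO) were called.

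Pdk1, a kinase that shuts off pyruvate dehydrogenase, rose in WT from 82.8, 85.3 and 90.4 CPM to 101, 109 and 115 CPM, by 0.34 ± 0.07 (adjusted p = 0.0076). In KO it rose by 0.25 ± 0.07 (adjusted p = 0.0321), but this call was lost in 13 of 18 leave-outs and after centring (0.22, adjusted p = 0.0546). Pdp1, the phosphatase that opposes it, fell in WT from 297, 304 and 311 CPM to 213, 216 and 262 CPM, a change of -0.43 ± 0.08 (adjusted p = 0.00477). In KO its change was -0.22 ± 0.15 (adjusted p = 0.4). Of 10 regulators measured, these 2 were the calls in WT and Pdk1 the call in KO, beside 10.6% and 10% of all genes. The phosphofructokinase activator gene Pfkfb3 had changes of 0.27 ± 0.12 (adjusted p = 0.184) and 0.14 ± 0.11 (adjusted p = 0.51).

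**Figure D4:**
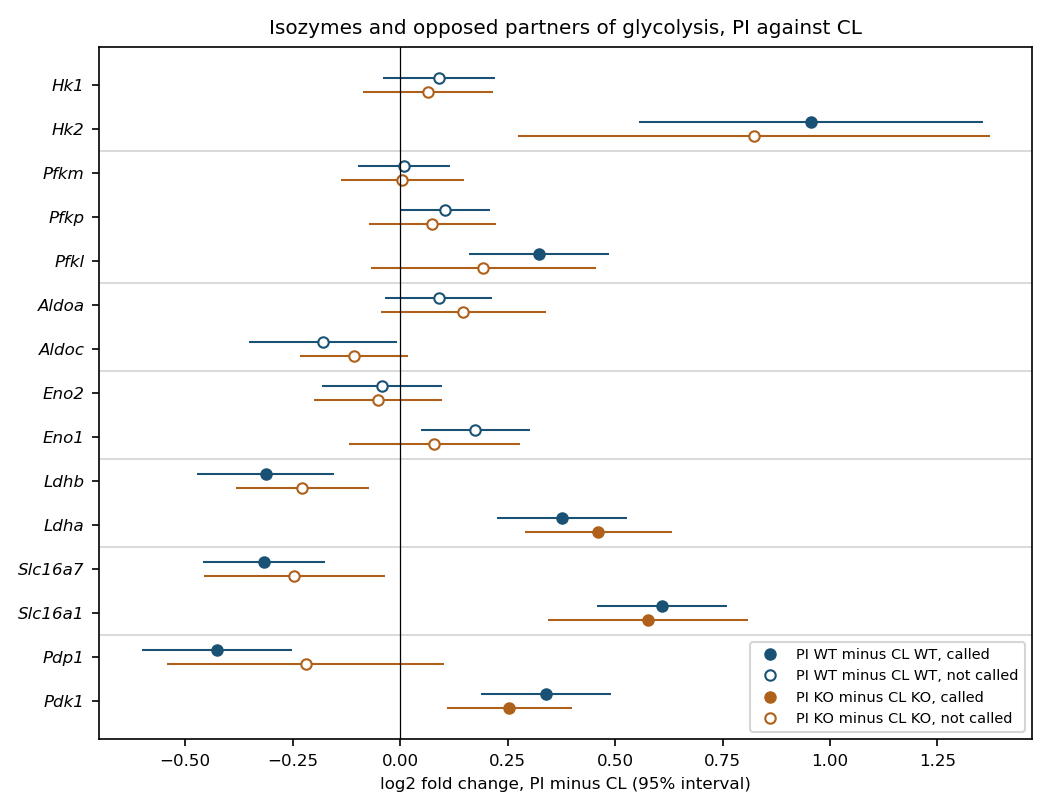
Log2 change from CL to PI with its 95% interval for isozymes and paired regulators, grouped by step, in WT (blue) and KO (orange); filled points were called. Ldha, Slc16a1 and Pdk1 lie to the right of 0 in both genotypes, while Ldhb, Slc16a7 and Pdp1 lie to the left, called in WT and not in KO.

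Among genes that lead pyruvate elsewhere, Pcx, pyruvate carboxylase of astrocytes, was called lower in both genotypes. Its changes were -0.31 ± 0.08 in WT (adjusted p = 0.03) and -0.34 ± 0.09 in KO (adjusted p = 0.0375), lost in 13 and 14 of 18 leave-outs. None of the other 5 genes of that list, all subunits of pyruvate dehydrogenase, was called in limma, with Pdha1 in WT and Dld in KO at an unadjusted p under 0.05. In the list of 14 pentose phosphate, glycogen and glycerol genes, Pgd, which makes NADPH, rose in WT by 0.45 ± 0.09 (adjusted p = 0.00737). Its KO change was 0.28 ± 0.09 (adjusted p = 0.0717). Tkt, a transketolase of the pentose shunt, had a change of 0.21 ± 0.08 in WT (adjusted p = 0.124) and rose by 0.30 ± 0.06 in KO (adjusted p = 0.0108), lost in 2 leave-outs. Gpd1, which makes glycerol-3-phosphate, was called higher in both, at 0.31 ± 0.09 and 0.29 ± 0.08 (adjusted p = 0.045 and 0.0349), lost in 15 and 13 of 18 leave-outs and in both after centring (adjusted p = 0.0664 and 0.0545). Pygb, brain glycogen phosphorylase, had a change of -0.28 in both, called in KO (SE 0.07, adjusted p = 0.0267; lost in 11 leave-outs) and not in WT (SE 0.10, adjusted p = 0.116).

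Between genotypes, 0 of 10 enzymes were called in PI and 0 of 10 in CL by the trimmed-mean test in limma, and 0 had an unadjusted p under 0.05 on either side. Over all genes, 0.0208% were called in PI and 0.0279% in CL, and 5.75% and 5.73% had an unadjusted p under 0.05. In PI, Ldha was 0.12 ± 0.09 higher in KO (95% interval -0.08 to 0.32, adjusted p = 0.889). Hk2 differed by -0.12 ± 0.16 (-0.47 to 0.23) and Gapdh by 0.15 ± 0.10 (-0.07 to 0.37), the widest difference of the 10. In CL, Gapdh had the widest difference too, -0.10 ± 0.07 (-0.25 to 0.05, adjusted p = 0.916). The other 7 enzymes differed by -0.06 to 0.08 in PI, and the 9 other than Gapdh by -0.04 to 0.03 in CL. These are comparisons that share libraries with those of PI and CL. The interaction, the KO change minus the WT change, was called for 0 of 14211 genes in limma, with 4.55% at an unadjusted p under 0.05. None of the 10 enzymes was among the latter. With limma on the deposited values, whose spread is understated by the drawing in, Gapdh was called in the interaction (adjusted p = 0.0311, and 0.0172 with the animal as a block). These fits called 13.7% and 15.6% of all genes.

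With the animal as a block, limma on the deposited values called 6 of the 10 in WT, adding Hk1, Pfkp, Aldoa and Gapdh (adjusted p = 0.00756, 0.00421, 0.0129 and 6.6e-05). In KO it called 4, adding Hk2, Aldoa and Pgk1 (adjusted p = 0.000365, 0.00775 and 0.00123). Of all genes, the same fit called 45.6% in WT and 47.1% in KO, so the counts of 6 and 4 are near the share of any gene. Without the block the deposited values gave the same counts, beside 44.6% and 46.5% of all genes. Of the partners, Aldoc, Eno1 and Pgam1 in WT, and Aldoc, Pfkl and Ldhb in KO, were also called with the block. So were Tkt and Pygb in WT, and Pgd, Slc16a7 and Pdp1 in KO.

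In some groups most of the enzymes were high or low in the same libraries. PI KO replicate 1 was in the highest pair of its group for 10 of the 10 enzymes and replicate 4 for 9, while replicate 5 was in the lowest pair for 9. Over all genes those libraries were in the respective pairs for 37.7%, 34.3% and 33.2%. In WT, replicate 2 of PI was in the highest pair for 9 and replicate 2 of CL, from the same animal, for 8, with 33.4% and 33.2% over all genes. CL KO held no such library: at most 6 enzymes shared a highest or a lowest pair there, and replicate 6 was in the lowest pair for 6 and in the highest for 4. PI WT replicate 3 was likewise in the lowest pair for 4 and in the highest for 3. For the 11 neuronal markers, PI KO replicate 1 was in the highest pair for 2 and replicate 4 for 8, and PI WT replicate 2 for 8. PI KO replicate 4 was in the lowest pair for all 6 reactive astrocyte genes. The wider spread of the PI KO group for Aldoa (second highest value 850 CPM beside a median of 693) belongs to this pair of libraries. What sets them apart was not tested.

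Some markers of cell types also differed between CL and PI, part of them higher and part of them lower in PI. All 6 of 6 reactive astrocyte genes (Gfap, Vim, Serpina3n, Lcn2, Cd44 and Osmr) were called higher in both genotypes, with median changes of 2.43 in WT and 2.40 in KO. Their sum went from 104 to 129 CPM in CL WT to 430 to 496 CPM in PI WT, and from 100 to 118 to 410 to 582 CPM in KO. All marker sums add deposited, drawn-in values, so their ranges may be too narrow and the gap between CL and PI too wide. Of 11 neuronal genes 4 were called lower in each genotype and 1 higher in KO, and their sum went from 9658 to 10305 CPM down to 8289 to 9083 CPM in WT. In KO that sum went from 9638 to 10012 CPM down to 8038 to 8770 CPM. Of 8 astrocyte genes 1 was called higher and 3 lower in WT, and 1 each way in KO. The sum of the 8 was 7349 to 7744 CPM in CL WT and 6361 to 6766 CPM in PI WT. In KO it was 7374 to 7873 and 6185 to 6875 CPM. Of 9 microglial genes 5 were called higher and 1, P2ry12, lower in both genotypes, with sums of 182 to 194 CPM in CL WT and 204 to 228 CPM in PI WT. Sums in KO were 193 to 209 CPM in CL and 227 to 270 CPM in PI. Of 3 measured neutrophil and monocyte genes 1 was called higher in each genotype, at sums of 12.9 to 14.05 CPM in CL WT and 21.7 to 29.1 CPM in PI WT. The neutrophil gene S100a8 was not in the tables of PI and CL. Of 8 oligodendrocyte genes 1 was called lower in WT and 0 in KO. At an unadjusted p under 0.05, 5 were lower and 0 higher in WT, and 0 lower and 1 higher in KO. Their sum was 2120 to 2314 CPM in CL WT and 1461 to 2077 CPM in PI WT. In KO it was 1697 to 2296 and 1623 to 1841 CPM. Of 8 endothelial genes 0 were called in WT and 1, lower, in KO. Over all genes 10.6% (WT) and 10% (KO) were called. None of 4 erythroid, 5 pericyte or 1 choroid plexus genes was called by the test in limma. Unadjusted p was under 0.05 for 2 pericyte genes in each genotype and for none of the others. The part of these shifts in the changes of Ldha, Hk2 and their partners was not tested.

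Outside the lists, the genes whose 4 changes (2 of PI against CL, 2 of KO against WT) came nearest to those of Ldha were P4hb, Mybbp1a and Ftl1, among 806 genes called in both comparisons of PI with CL. Their root mean square differences from Ldha were 0.0093, 0.0178 and 0.0233 on the log2 scale. Each is smaller than the SE of any of the 4 Ldha changes, so the order among near genes is not resolved. P4hb encodes a protein disulfide isomerase, and its changes were 0.36 in WT and 0.45 in KO. Mybbp1a encodes a nucleolar protein, with 0.35 and 0.45, and Ftl1 the ferritin light chain, with 0.35 and 0.44. Ldha was the single enzyme called in both genotypes, so no such comparison was made for the others.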

How the data were processed

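Ribosome-depleted total RNA of cortex was sequenced in 24 libraries made with the CORALL kit, per the labels' protocols. The authors deposited log2 CPM, per the file headers, as 4 separately scaled tables of 2 groups each. The build is mm10 per the submitters' processing notes, and the aligner, the counting and its use of strand are not given in the sources used here. Groups and animal numbers come from the titles, and all columns were matched (0 unused columns).

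In 100% of genes the deposited log2 values tie the 2 lowest and the 2 highest libraries of a group at its quartiles (weights of 0.75 on the second value from the end and 0.25 on the third). The 4 inner values were solved from this. The mean of these 4, with the Winsorized sum of squares as error and 6 residual degrees of freedom (12 for 4 groups), went to the empirical Bayes step of limma 3.58.1 in R 4.3.3, with a trend. Tests were two-sided, with Benjamini-Hochberg adjustment over all genes of a table. The test was checked on simulated data. A count test was not used, since the outer values are no longer reads. Depth came from the CPM step at which low values were whole within 0.03 read (82.6% to 90.8% of them).

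The enzymes, lists and tests were chosen with earlier results of these data known. Named genes are the 10 enzymes, their isozyme partners, list genes called in PI against CL, 3 genes most like Ldha, and defining markers; any other was chosen after its values were seen. Of the deposited rows 59 were listed by identifier and renamed. Positions are from GENCODE M21. Same-numbered CL and PI libraries are of the same animal per the labels, and their deviations correlated at -0.17 to 0.31 in WT and -0.00928 to 0.17 in KO. The submitters call the 6 animals a group biological replicates. Alternatives were limma on the deposited values with and without the block, no trend, centring, a minimum of 1 CPM, log2(CPM + 1), and leaving out libraries and animals. No separate fit by batch was made, since the labels used here give none.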

Additional observations from a re-analysis of the deposited data

How the results depend on the processing

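The number of genes called between PI and CL was 1537 in WT and 1440 in KO, and depended most on how the spread was taken. Limma on the deposited, drawn-in values called 6459 and 6614 in WT without and with the animal as a block, and 6666 and 6759 in KO. Between genotypes it called 2388 and 1800 in PI (beside 3), 2311 and 1868 in CL (beside 4), and 1940 and 2216 for the interaction (beside 0). Without a trend the counts were 1015 (WT) and 739 (KO). Of the 10 enzymes 2 were called in WT and 1 in KO, but 6 and 4 on the deposited values with or without the block, and 1 (Gapdh) for the interaction. Between genotypes the replicate numbers are those of different animals, with correlations of -0.14 to 0.15 in PI and -0.23 to 0.12 in CL, and 0 enzymes were called with or without that block. Leaving out a library or an animal gave 770 to 1468 genes in WT, 539 to 1602 in KO, 3 to 4 in PI, 3 to 7 in CL and 0 to 1 for the interaction. The enzymes called then numbered 2 to 3 in WT and 1 to 2 in KO. Counts moved by over 1.5 times without animals 1, 3, 5 and 6 in WT (1011, 921, 1014 and 770). They did so too without animals 2, 3 and 5 in KO (601, 651 and 539) and without CL KO replicate 5 (900). Fewer libraries enter the test in every leave-out, and what sets these apart was not tested. Centring gave 3 enzymes in WT by adding Gapdh. No result that was called changed sign. Without a trend Ldhb was not called in WT (adjusted p = 0.0757) and Pdk1 not in KO (adjusted p = 0.0934), and after centring Ldhb was called in KO (adjusted p = 0.0328). The filter at 1 CPM and log2(CPM + 1) changed no call of a named gene. Of the 10 enzymes Hk2 had the fewest reads, about 21.0 a library in CL WT.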
